A study of Mus musculus with 22 samples.

Results

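The receptor genes Tnfrsf4, Tnfrsf9, Tnfrsf18 and Tnfrsf1b of the tumour necrosis factor (TNF) receptor superfamily were followed through chromatin immunoprecipitation sequencing (ChIP-seq) peak lists of mouse regulatory T cells (Treg cells), the Foxp3-dependent T cells that restrain immune responses. They encode OX40, 4-1BB, GITR and TNF receptor 2 in that order and are 4 of the 21887 protein-coding genes of the annotation used. They were taken by name, and every peak overlapping the gene or the 10 kb on each side of it by at least 1 bp was assigned to the gene. The study mapped Foxp3, the factor that defines the lineage, p300, which acetylates histones, NFAT1, which calcium signals switch on, and acetylation of lysine 27 of histone H3 (H3K27ac), which marks enhancers and promoters in use, in wild-type (WT) cells and in cells labelled IkE5-deletion or IkE5-deficient (written IkE5). Each target had 2 libraries in either genotype. The zinc finger factor Ikaros, the product of the Ikzf1 gene named in the series title, was mapped in WT cells alone, with 2 libraries. All cells were primary Treg cells of spleen and lymph nodes, and all, WT included, had received Cell Stimulation Cocktail, a commercial activator mix, for 1 h. Fixation was in 1% formaldehyde, 5 min for the histone mark and 30 min for the factors. The labels do not expand IkE5, and strain, age, the way the deletion was made or driven and the number of animals are not given in the sources used here. They also do not state whether the numbered libraries of a group derive from different animals, so the p-values below reflect library-to-library spread, which may be technical.

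TNF receptor superfamily members are type I membrane proteins that bind trimeric ligands and pass the signal through TRAF adaptor proteins, chiefly to the NF-kappaB transcription factors. OX40, 4-1BB, GITR and TNF receptor 2 lack a death domain and act as costimulatory receptors. Treg cells carry them at high levels, where they support proliferation and survival, and agonist and depleting antibodies to them have been studied in tumour immunity.

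The lists held 16526 to 21619 peaks for Foxp3, 22297 and 26641 for Ikaros, 8775 to 11670 for p300, 3435 to 7825 for NFAT1 and 35272 to 53032 for H3K27ac. A list gives positions only, so read depth and the height of a peak are unknown, and a missing peak is a peak that was not called. All factor peaks at the receptor genes were 500 bp wide, whereas H3K27ac peaks varied in width. The genes of the Treg marker list, which includes the general T cell genes Cd3e and Cd4, carried H3K27ac in every library (6 of 6 marker genes, 66.9% and 45.3% of their windows covered in WT, 70.1% and 57.5% in IkE5). Markers of B cells were covered at 1.67% to 2.62% of their windows, with no H3K27ac peak in any library at Ms4a1. For myeloid markers the range was 1.84% to 3.62%, with none at Lyz2, Csf1r and Adgre1, and for CD8 T and natural killer cell markers 3.44% to 6.01%, with none at Ncr1. Their part in the results below was not tested. The second WT Foxp3 library stands apart at the receptor genes, as described with the Foxp3 counts.

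All 4 genes lie on chromosome 4 (mm10, the build GRCm38). Tnfrsf1b occupies chr4:145212368-145246870 on the minus strand and Tnfrsf9 chr4:150920155-150946104 on the plus strand. Tnfrsf4 (chr4:156013595-156016613) and Tnfrsf18 (chr4:156026322-156028894) are short neighbours on the plus strand, 3019 and 2573 bp long. Their windows overlap, and values that would count a shared peak again are given for the joined window of 35300 bp. Other genes reach into these windows. The upstream flank of Tnfrsf1b holds the long non-coding RNA gene Gm36233, and the Tnfrsf4 and Tnfrsf18 window holds the end of Sdf4, the long non-coding RNA gene Gm16008 and part of Ttll10, so a peak assigned here by distance is not thereby tied to the receptor gene.

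The promoter sequences are shown because the transcription start was where no factor peak was called, while the acetylation mark covered it with 1 exception. The first Tnfrsf9 start site was covered in library 1 of each genotype only. Each runs 5′ to 3′ on the strand of the gene from 250 bases before to 50 bases after a RefSeq start site (GRCm38.p6), and 2 start sites are listed for Tnfrsf9. Capitals mark the letters GGGAA (the core bound by Ikaros), GGAAA (the core bound by NFAT), TGTTTAC (a forkhead motif) and TGANTCA (an AP-1 motif), searched on both strands. A run of 3 G and 3 A holds both of the first 2 motifs. The Tnfrsf1b promoter is chr4:145246821-145247120 (minus strand), the Tnfrsf9 promoters are chr4:150919905-150920204 and chr4:150927749-150928048, the Tnfrsf4 promoter is chr4:156013445-156013744 and the Tnfrsf18 promoter is chr4:156026072-156026371 (all plus strand).
Tnfrsf1b: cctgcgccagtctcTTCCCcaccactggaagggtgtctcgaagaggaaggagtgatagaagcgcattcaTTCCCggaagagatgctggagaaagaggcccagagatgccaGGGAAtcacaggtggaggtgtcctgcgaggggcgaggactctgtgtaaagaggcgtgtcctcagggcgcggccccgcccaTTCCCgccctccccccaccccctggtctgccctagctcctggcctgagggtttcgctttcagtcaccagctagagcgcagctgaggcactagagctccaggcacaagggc
Tnfrsf9, the first start site: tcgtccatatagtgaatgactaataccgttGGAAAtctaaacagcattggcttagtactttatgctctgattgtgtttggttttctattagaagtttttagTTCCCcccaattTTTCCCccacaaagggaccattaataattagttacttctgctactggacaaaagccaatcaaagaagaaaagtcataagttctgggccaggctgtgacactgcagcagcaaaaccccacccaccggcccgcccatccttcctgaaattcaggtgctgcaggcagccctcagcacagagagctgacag
Tnfrsf9, the second start site: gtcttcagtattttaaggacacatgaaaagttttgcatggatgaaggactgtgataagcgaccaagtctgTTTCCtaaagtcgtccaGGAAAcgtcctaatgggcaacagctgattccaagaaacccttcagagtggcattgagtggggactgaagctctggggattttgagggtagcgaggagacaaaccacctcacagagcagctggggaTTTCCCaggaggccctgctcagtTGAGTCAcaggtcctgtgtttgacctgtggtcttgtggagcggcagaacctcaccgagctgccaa
Tnfrsf4: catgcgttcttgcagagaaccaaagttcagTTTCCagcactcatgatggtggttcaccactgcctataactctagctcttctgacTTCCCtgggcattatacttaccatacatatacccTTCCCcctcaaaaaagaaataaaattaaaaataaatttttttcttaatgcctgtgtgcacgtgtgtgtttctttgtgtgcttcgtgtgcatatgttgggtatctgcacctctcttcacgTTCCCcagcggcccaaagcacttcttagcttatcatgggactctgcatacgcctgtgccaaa
Tnfrsf18: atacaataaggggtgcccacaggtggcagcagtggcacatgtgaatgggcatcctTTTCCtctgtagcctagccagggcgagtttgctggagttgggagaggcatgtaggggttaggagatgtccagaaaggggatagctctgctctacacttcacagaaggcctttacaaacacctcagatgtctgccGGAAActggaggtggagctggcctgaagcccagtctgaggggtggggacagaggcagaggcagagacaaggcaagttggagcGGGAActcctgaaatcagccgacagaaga

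GGGAA was found 4 times in the Tnfrsf1b promoter, 3 times in that of Tnfrsf4, 2 times and 1 time at the first and the second start site of Tnfrsf9, and 1 time in that of Tnfrsf18. It occurs in 62.7% of 32851 RefSeq promoters of this length, and GGAAA in 61.3%, so their presence is common. GGAAA matched 3 times at the second Tnfrsf9 start site, 2 times at the first and in Tnfrsf18, 1 time in Tnfrsf4 and not in Tnfrsf1b. TGANTCA, found in 7.81% of promoters, matched once, as TGAGTCA at the second Tnfrsf9 start site, and TGTTTAC, found in 3.65%, matched in none of the 5. GC content was 62.7% for Tnfrsf1b, 55.3% for Tnfrsf18, 51.0% and 45.3% for the second and the first start site of Tnfrsf9 and 43.7% for Tnfrsf4, against a median of 52.7% over all promoters. These matches describe the letters alone and are not binding sites.

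None of the 14 factor lists had a peak on any of these 5 promoters, and H3K27ac had one at all 4 genes. Over the 17492 genes with a promoter sequence, a peak of any library lay on a promoter in 39.8% for Foxp3, 41.6% for Ikaros, 23.8% for p300 and 10.6% for NFAT1, against 0 of 4 receptor genes for each, and in 53.2% for H3K27ac. With so few genes, 0 is near the shares for p300 and NFAT1, and the difference was not tested for any target. H3K27ac covered the whole 300 bp of the Tnfrsf1b, Tnfrsf4 and Tnfrsf18 promoters and of the second Tnfrsf9 promoter in all 4 libraries. At the first Tnfrsf9 promoter it covered 100% in WT library 1 and IkE5 library 1 and 0% in WT library 2 and IkE5 library 2, so that cover differed by library number and not by genotype.

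The factor peaks of the receptor genes lay away from the start sites. Peaks of the 14 factor lists were joined where they overlapped, which gave 21 sites, 9 at Tnfrsf1b, 7 at Tnfrsf9 and 5 in the joined window of Tnfrsf4 and Tnfrsf18. Of these, 8 were upstream of the nearest of the 4 genes, 9 inside it and 4 beyond its 3′ end. Exons and introns were not told apart with the annotation used. H3K27ac covered 16 of the 21 sites along their whole length in all 4 libraries. Ikaros was called in both WT libraries at 11 sites and in at least 1 at 19. Sites with a peak in all 14 lists numbered 3, against 2.04% of the 44553 factor sites of the genome, and 6 had a peak in at least 12 lists, against 6.11%. At the other end 2 sites were in a single list, against 33.6%.

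**Figure D1:**
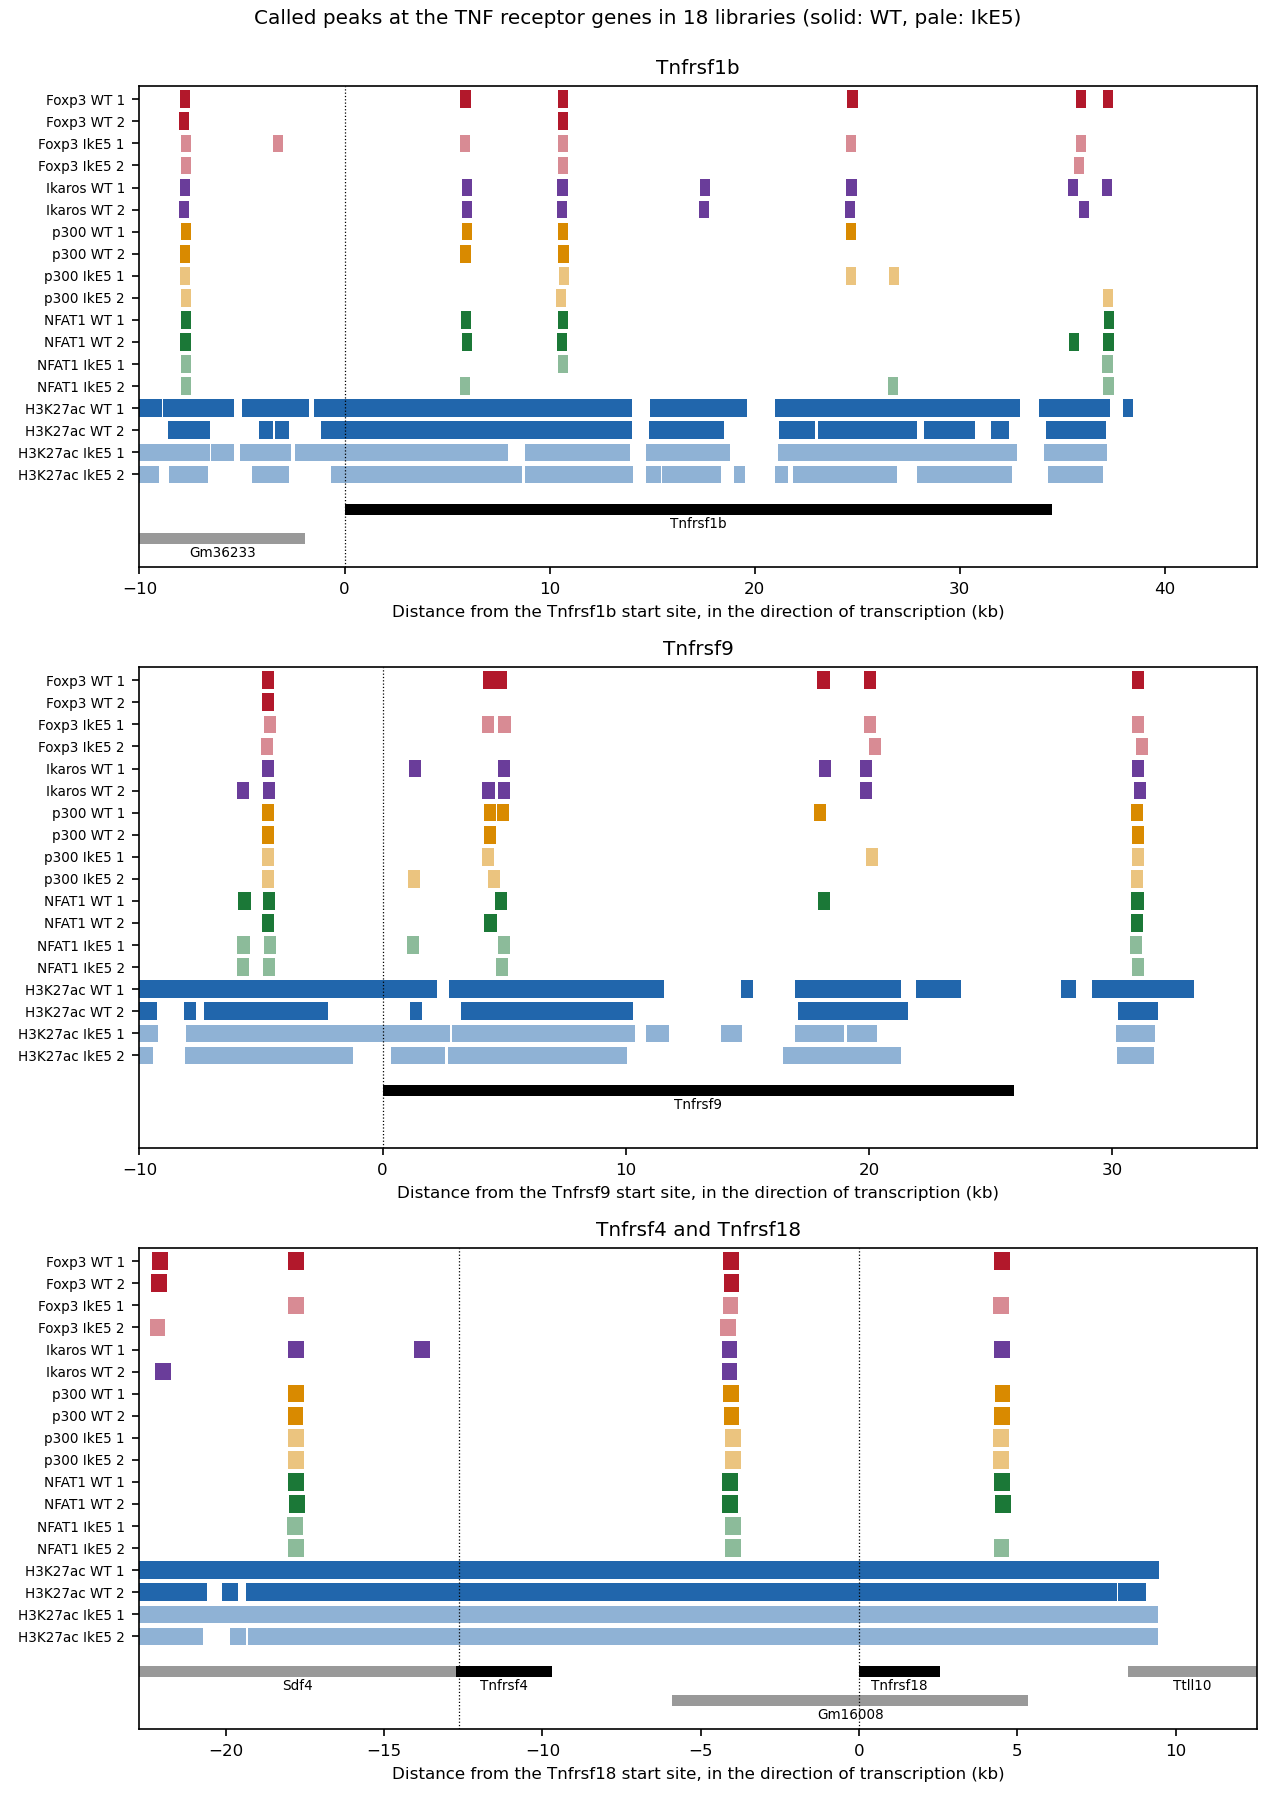
Peaks called in each of the 18 libraries (rows; solid colours WT, pale colours IkE5) along the 3 receptor gene windows, against distance from the start site in kb in the direction of transcription; black bars are the receptor genes, grey bars other annotated genes and dotted lines start sites. In each panel 1 upstream position holds a peak in every factor library, at 7.75 kb before Tnfrsf1b, 4.71 kb before Tnfrsf9 and 4.04 kb before Tnfrsf18.

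Each locus had exactly 1 site at which Foxp3, Ikaros, p300 and NFAT1 were called in every library of both genotypes, and all 3 were upstream. At Tnfrsf1b it lay 7.75 kb before the start site (chr4:145254338-145254941), inside Gm36233, and the midpoints of its 14 peaks fell within 104 bp of each other. At Tnfrsf9 it lay 4.71 kb before the first start site (chr4:150915149-150915773), with midpoints within 125 bp. At Tnfrsf18 it lay 4.04 kb upstream (chr4:156021926-156022597), between Tnfrsf4 and Tnfrsf18 and inside Gm16008, with midpoints within 172 bp. H3K27ac covered 100% of all 3 in all 4 libraries.

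A further 3 sites had a peak in 12 or 13 lists. In the body of Tnfrsf1b, 10.65 kb after the start (chr4:145235932-145236545), every list but that of the second IkE5 NFAT1 library had a peak. At Tnfrsf9, 5.1 kb beyond the 3′ end (chr4:150950894-150951632), every list but that of the second WT Foxp3 library had one. Inside Tnfrsf9, 4.73 kb after the first start site (chr4:150924247-150925411), 12 lists had a peak and the second Foxp3 library of either genotype did not. The latter site is 1165 bp wide because neighbouring peaks chained together, and it may hold more than 1 position. Each of the 4 genes had at least 1 region in all 4 lists of Foxp3, of p300, of NFAT1 and of H3K27ac, where 54.2%, 30.3%, 21.4% and 86.5% of the genes with any region of the target had one. Tnfrsf9 had 3 sites of at least 12 lists, Tnfrsf1b 2, and Tnfrsf4 and Tnfrsf18 the 1 they share. Among the 14621 genes with any factor site, 14.1% had at least 1 such site and 2.22% at least 2.

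The Tnfrsf4 and Tnfrsf18 window had p300 and NFAT1 at the same 3 positions. Besides the shared site, p300 and NFAT1 were called in all 4 of their libraries 5.15 kb before Tnfrsf4 (chr4:156008257-156008831, inside Sdf4), where Foxp3 was called in library 1 of each genotype and Ikaros in library 1. At 1.94 kb beyond the 3′ end of Tnfrsf18 (chr4:156030549-156031115) p300 was called in all 4 libraries, NFAT1 in both WT and the second IkE5 library, and Foxp3 and Ikaros again in library 1 only. A site 9.46 kb before Tnfrsf4 (chr4:156003915-156004582) had Foxp3 in both WT libraries and IkE5 library 2 and Ikaros in library 2, and no p300 or NFAT1 peak. A peak 1.18 kb before Tnfrsf4 came from Ikaros library 1 alone.

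Sites with fewer targets occurred at Tnfrsf1b and Tnfrsf9 too. At 17.57 kb into Tnfrsf1b (chr4:145229022-145229588) both Ikaros libraries and no other factor list had a peak, under H3K27ac that covered the site fully in all 4 libraries. At 5.73 kb before Tnfrsf9 (chr4:150914147-150914726) NFAT1 was called in WT library 1 and both IkE5 libraries and Ikaros in library 2. Sites without Ikaros in either library were the 2 at 26.78 kb and at -3.26 kb from the Tnfrsf1b start, each called in 1 or 2 lists. In WT, 4 of the 5 receptor regions with Foxp3 in both libraries overlapped a region with Ikaros in both (80.0%), beside 86.3% of all 10885 such Foxp3 regions. The exception was the site 9.46 kb before Tnfrsf4, where 1 Ikaros library had a peak.

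**Figure D2:**
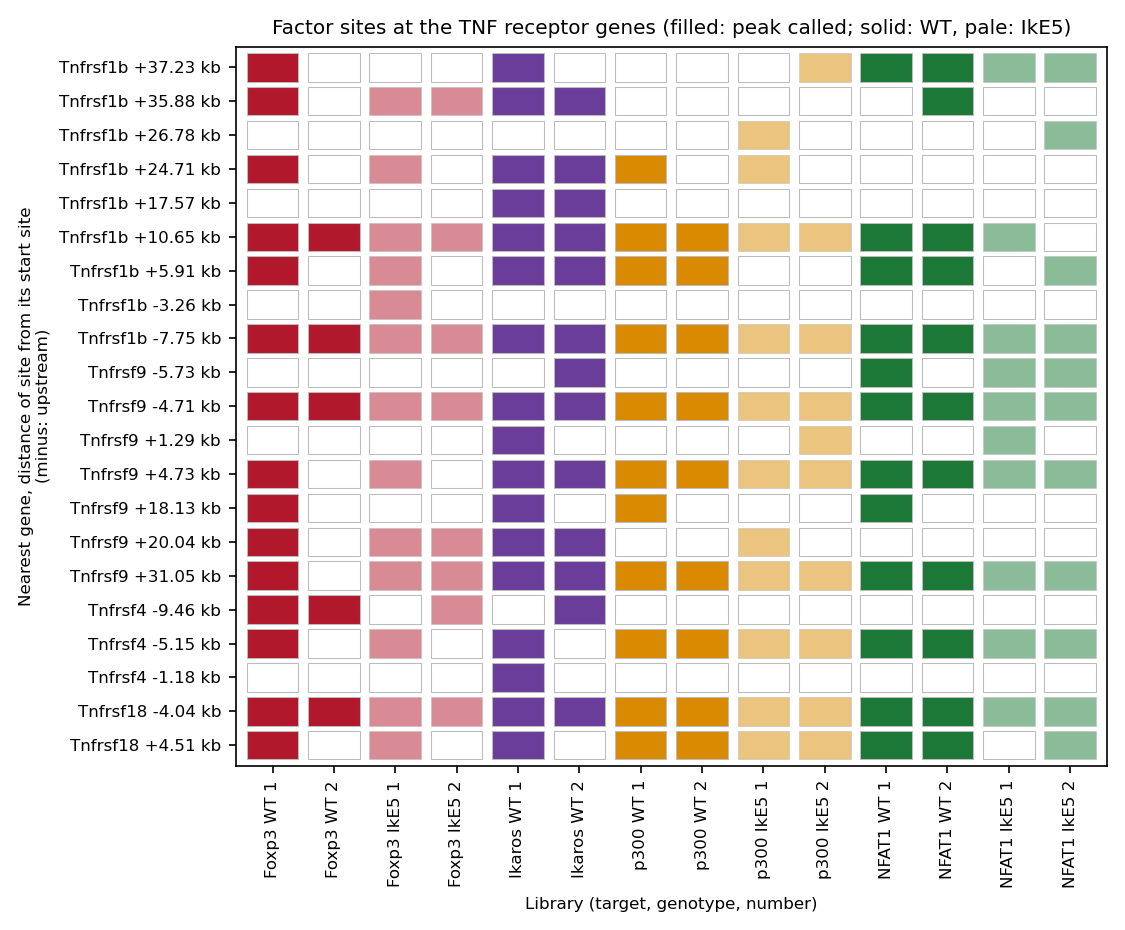
Presence of a called peak (filled cell) at each of the 21 factor sites (rows, named by the nearest of the 4 genes and the distance in kb from its start site, negative upstream) in each of the 14 factor libraries (columns; solid WT, pale IkE5). The rows at -7.75, -4.71 and -4.04 kb are filled across all 14 libraries, and the second WT Foxp3 library is filled in 5 rows.

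Foxp3 peaks in the 3 receptor gene windows numbered 16 and 5 in WT and 14 and 8 in IkE5. The second WT library was the lowest and the WT values enclosed both IkE5 values, so the genotypes overlapped. The WT mean was 10.5 ± 7.78 and the IkE5 mean 11 ± 4.24 (SD, n = 2 each), a difference of 0.5 (2-sided exact permutation p = 1.000, where 2 against 2 libraries cannot go below 0.333). Of 5 regions with Foxp3 in both WT lists, 4 had it in both IkE5 lists and 0 in neither, beside 71.0% and 7.71% of all such regions. Without the second WT library the difference was -5 and without the first IkE5 library -2.5, so its sign rested on single libraries. By gene the WT counts were 6 and 2 at Tnfrsf1b, 6 and 1 at Tnfrsf9 and 4 and 2 in the joined Tnfrsf4 and Tnfrsf18 window, and the IkE5 counts were 6 and 3, 5 and 3, and 3 and 2. Library 1 was thus above library 2 in each genotype at every locus, and the number 1 lists were also the longer ones over the genome. Of 17 Foxp3 regions (peaks of the 4 Foxp3 lists joined), 4 were in all 4 lists, 0 were in both WT and neither IkE5 list (WT only) and 0 in both IkE5 and neither WT list (IkE5 only), against 22.5%, 2.44% and 3.22% of all Foxp3 regions. The 4 rose to 7 regions in every list when the second WT library was left out, and 2 regions were then WT only. Without WT library 1, 3 regions were IkE5 only, and without IkE5 library 2, 1 was WT only and 1 IkE5 only.

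The p300 counts were 12 and 9 in WT and 11 and 10 in IkE5, and the IkE5 values lay between the WT values. Both means were 10.5, with an SD of 2.12 in WT and 0.707 in IkE5 (n = 2 each, difference 0, 2-sided exact permutation p = 1.000). Of 15 p300 regions 8 were in all 4 lists, 1 was WT only and 0 were IkE5 only, beside 22.9%, 5.63% and 6.01% of all p300 regions, so 1 of 15 is near the background. WT only regions numbered 2 without WT library 2 and 3 with 50 kb flanks, and IkE5 only regions numbered 2 without either one of the IkE5 libraries. Of the 9 regions with p300 in both WT lists 8 had it in both IkE5 lists and 1 in neither, beside 61.6% and 15.2% of all such regions. The WT only region was at Tnfrsf1b, 5.91 kb after the start site (chr4:145240661-145241213). At this site Ikaros was called in both libraries, NFAT1 in both WT and the second IkE5 library, Foxp3 in library 1 of each genotype, and H3K27ac covered 100% in all 4 libraries. The genotypes thus differed at this site in the p300 calls and not in the H3K27ac cover. Among genes with a p300 region 11.3% had a WT only one.

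NFAT1, whose lists were shorter in IkE5 cells (4908 and 3435 peaks against 7825 and 6850), was called at the receptor genes in about equal number in both genotypes. The counts were 12 and 11 in WT and 10 and 11 in IkE5, which touch at 11. The means were 11.5 ± 0.707 and 10.5 ± 0.707 (SD, n = 2 each, difference -1, 2-sided exact permutation p = 0.667). Per 10000 peaks of the library the values were 15.3 and 16.1 in WT and 20.4 and 32.0 in IkE5. On this scale both IkE5 libraries were above both WT libraries (difference 10.5, 2-sided exact permutation p = 0.333, the smallest possible). With near-equal counts, this order follows from the shorter IkE5 lists by which they were divided. Of 10 receptor regions with NFAT1 in both WT lists, 0 lacked a peak in both IkE5 lists, 3 had it in 1 and 7 in both. Over the genome 40.6% of 5301 such regions had no IkE5 peak and 36.6% had it in both. The difference between the receptor regions and these shares was not tested. Of all 15 NFAT1 regions at the receptor genes 7 were in all 4 lists, 0 WT only and 0 IkE5 only, beside 17.5%, 19.4% and 3.72% of all NFAT1 regions. Leaving out any 1 library made 1 or 2 of them WT only, and 1 IkE5 only except without WT library 2. In bulk lists, fewer cells with a factor bound and less binding per cell cannot be told apart.

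Where a region had 1 peak in each of the 4 lists of a target, the midpoints give a position to within the peak caller's resolution. At the receptor genes the midpoints of the genotypes did not overlap in 3 of 4 Foxp3, 3 of 7 p300 and 4 of 7 NFAT1 regions, beside 28.8%, 33.1% and 37.4% of such regions over the genome. At the site 4.04 kb before Tnfrsf18, singled out after its values were seen, the NFAT1 midpoints were 156022254.5 and 156022258.5 in WT and 156022347.5 and 156022338.5 in IkE5, a mean shift of 86.5 bp towards Tnfrsf18. The p300 midpoints there shifted by 44.0 bp in the same direction and the Foxp3 midpoints by -64.5 bp, in the opposite direction. The genotypes did not overlap in any of the 3 targets. With 2 libraries per genotype these shifts were not tested.

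**Figure D3:**
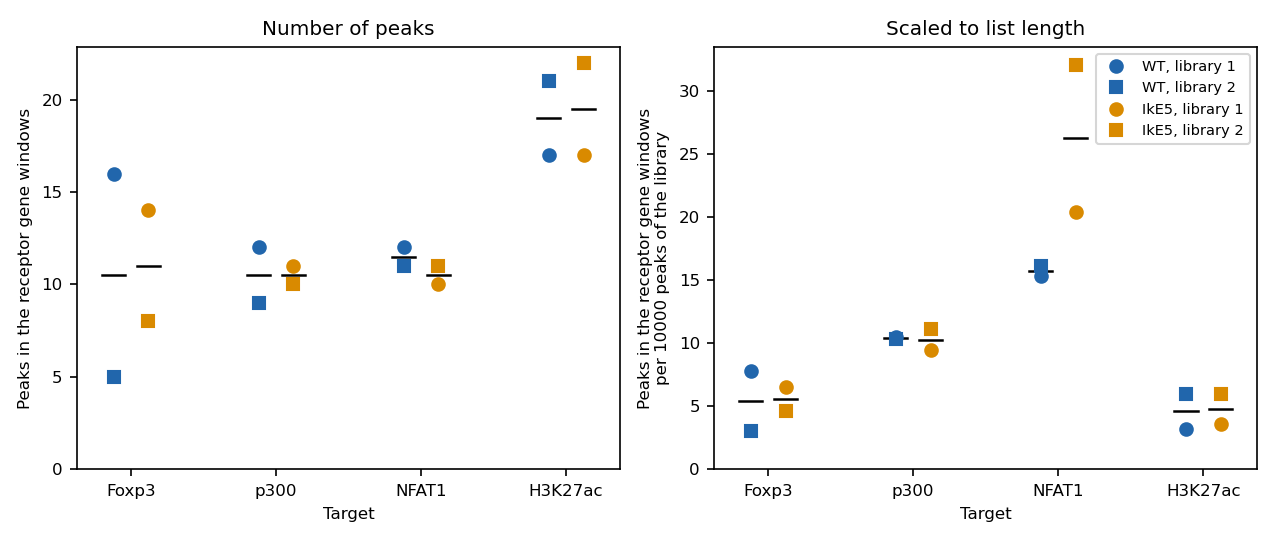
Peaks in the 3 receptor gene windows per library for Foxp3, p300, NFAT1 and H3K27ac (left, number of peaks; right, the same per 10000 peaks of the library); circles and squares are libraries 1 and 2, blue WT, orange IkE5, and horizontal lines the means of 2 libraries. The genotypes overlap or touch in every column of the left panel, and for NFAT1 on the right the IkE5 values of 20.4 and 32.0 are above the WT values of 15.3 and 16.1. The NFAT1 lists of IkE5 cells, by which these were divided, are the shorter ones.

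H3K27ac covered much of each receptor gene in both genotypes, from 43.5% to 100% of the window. Of the Tnfrsf4 window 100% and 96.8% were covered in WT and 100% and 95.9% in IkE5. For Tnfrsf18 the values were 86.3% and 84.3% in WT and 86.1% and 86.1% in IkE5, and both gene bodies were fully covered in every library. The Tnfrsf1b window was covered at 80.6% and 64.2% in WT and 76.0% and 66.7% in IkE5. Tnfrsf9 had the least and the widest spread, 71.1% and 43.5% in WT and 56.2% and 51.0% in IkE5, with both IkE5 libraries between the WT libraries. Library 1 was at or above library 2 in each genotype for all 4 genes. Over the 14790 genes with any H3K27ac the median cover was 6.64% of the window. With a mean of 98.2% Tnfrsf4 had 0 genes above it, Tnfrsf18 (85.7%) had 6, Tnfrsf1b (71.9%) 29 and Tnfrsf9 (55.4%) 115, or 0.778% of the covered genes. Short windows such as those of Tnfrsf4 and Tnfrsf18 can be filled by a single domain, which here also reached into Sdf4.

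**Figure D4:**
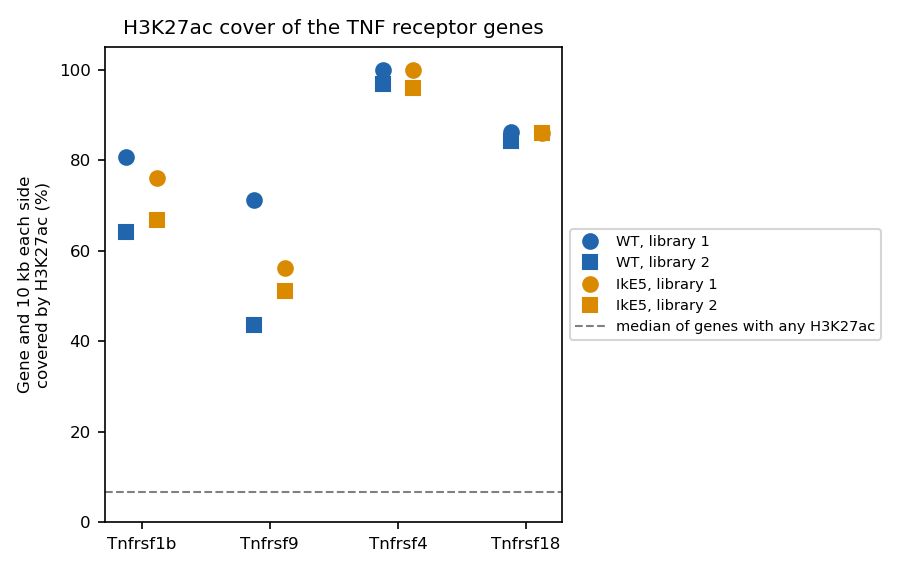
Share of each gene and the 10 kb on each side covered by H3K27ac peaks (%), per library; circles and squares are libraries 1 and 2, blue WT, orange IkE5, and the dashed line is the median of 6.64% over genes with any H3K27ac. All values of the 4 receptor genes, from 43.5% to 100%, are above the line, and the genotypes overlap at each gene.

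A single H3K27ac peak spanned Tnfrsf4 and Tnfrsf18. It was 33.4 and 27.51 kb wide in WT and 32.22 and 28.73 kb in IkE5, in WT library 1 from chr4:156002404 to 156035806, and it ranked 13 of 53032 peaks by width in WT library 1, 7 of 35272 in WT library 2, 13 of 47982 in IkE5 library 1 and 12 of 37152 in IkE5 library 2. At Tnfrsf9 the widest peak was 13.94 and 7.04 kb in WT and 10.88 and 7.38 kb in IkE5, ranking 177 and 498, and 308 and 535, in those lists. At Tnfrsf1b the WT libraries had a single peak of 15.51 and 15.15 kb over the 5′ part of the gene (chr4:145232872-145248381 in library 1), which ranked 120 and 57. In both IkE5 libraries this stretch was split into separate peaks, and the widest peaks of the window were 11.65 and 9.36 kb, ranking 246 and 288. The base pairs covered in both WT and neither IkE5 library there came to 109 bp (chr4:145238084-145238192), and every other base of the window that both WT libraries covered was covered in at least 1 IkE5 library.

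Counted by bases, the H3K27ac of the receptor genes was shared between libraries to a higher degree than in the genome. Of the bases covered in any library, 95.0% were covered in all 4 in the Tnfrsf4 and Tnfrsf18 window, 71.2% at Tnfrsf1b and 51.7% at Tnfrsf9, beside 35.1% over all chromosomes. WT only bases made up 0%, 0.244% and 0.478% of these loci, beside 5.06%, and IkE5 only bases 0%, 0.390% and 1.13%, beside 5.16%. Of 14 joined H3K27ac regions 9 were in all 4 lists and 0 were WT only or IkE5 only, against 31.2%, 4.69% and 3.90% of all H3K27ac regions. The 9 regions with H3K27ac in both WT lists all had it in both IkE5 lists, beside 78.0% of all such regions, and 11.7% had it in neither. Without WT library 2, 4 regions were WT only. H3K27ac peaks numbered 17 and 21 in WT and 17 and 22 in IkE5 (19 ± 2.83 and 19.5 ± 3.54, SD, n = 2 each, difference 0.5, 2-sided exact permutation p = 1.000), and the groups overlapped. Leaving out WT library 1 or IkE5 library 2 turned this difference to -1.5 and -2.

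The covered length of the receptor genes did not pass the test between genotypes. Together the 3 windows held 108.8 and 86.03 kb of H3K27ac in WT and 99.4 and 91.01 kb in IkE5. Per Mb of H3K27ac in the library this was 1366 and 1576 bp in WT and 1363 and 1466 bp in IkE5 (1471 ± 148 and 1415 ± 72.8, SD, n = 2 each, difference -56.2 bp, 2-sided exact permutation p = 0.667), and without WT library 2 the difference was 48.5 bp. Per gene, log2(covered length scaled to the library total + 1000 bp) was compared with limma over 12714 genes. The log2 difference, IkE5 over WT, was -0.04 ± 0.19 for Tnfrsf1b (SE, 95% interval -0.47 to 0.39, limma adjusted p = 0.991). For Tnfrsf9 it was -0.08 ± 0.19 (-0.52 to 0.36, limma adjusted p = 0.972), for Tnfrsf4 -0.03 ± 0.23 (-0.55 to 0.48, limma adjusted p = 0.997) and for Tnfrsf18 -0.02 ± 0.23 (-0.54 to 0.51, limma adjusted p = 0.999). Of all genes 1.12% passed limma's adjusted threshold of 0.05, 0.739% higher and 0.385% lower in IkE5, and the median gene was at -0.02. None of the 4 receptor genes passed, and their median was -0.04. Where cover is near complete a window cannot gain, and scaling by the library total then lifts WT library 2, whose list covers the least, above the window length, so for Tnfrsf4 and Tnfrsf18 the unscaled differences of -0.01 and 0.01 are closer to what was measured.

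The ligands of these receptors were taken from a list of 5. Tnfsf4, the gene of OX40 ligand, had no H3K27ac peak in its window in either WT library and 2.418 and 1.955 kb in the IkE5 libraries (limma adjusted p = 0.0194), with an IkE5 only region at chr1:161395459-161397468. The WT value is listed at 0, so no fold is given. The gene reached the minimum mean of 1000 bp only through the IkE5 libraries and so had to differ once it entered the fit. Its limma p is therefore no support for a change, and without either IkE5 library it did not enter the fit. With no minimum, where every covered gene enters, the adjusted p by limma was 0.0336. The call was also lost with 100 bp added in place of 1000 bp (limma adjusted p = 0.217), with no scaling (limma adjusted p = 0.129) and with scaling by median ratios (limma adjusted p = 0.0704). Tnfsf9, the gene of 4-1BB ligand, had means of 3.04 kb in WT and 6.38 kb in IkE5 after scaling (log2 1.02 ± 0.38, SE, limma adjusted p = 0.288). Tnf and Lta, the ligands of TNF receptor 2, were at 0.04 and 0.05. Tnfsf18, the gene of GITR ligand, fell under the minimum of 1000 bp. Tnfsf4 was the only one of the 4 ligand genes in the fit to pass, so the count of 1 rests on a gene that its IkE5 values brought into the fit, and no list median is given. No WT only or IkE5 only region of Foxp3, p300 or NFAT1 was present at the 4, 4 and 3 ligand genes with any region of the target. Over all such genes the WT only shares were 6.31%, 11.3% and 31.1%, and the IkE5 only shares 7.25%, 8.56% and 4.61%. With so few genes, 0 is near these shares for most targets. For H3K27ac, IkE5 only regions were at 2 of 4 ligand genes, Tnfsf4 and Tnfsf9, beside 11.2%, and WT only regions at 0, beside 13.3%.

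Of 24 other genes of the receptor superfamily 16 entered the test, 1 passed, higher in IkE5, and 0 passed lower, with a median of -0.13. The 1 was Cd40, the receptor of antigen-presenting cells for CD40 ligand, with no H3K27ac peak in either WT library and 2.016 and 1.983 kb in IkE5 (limma adjusted p = 0.0247), at chr2:165054816-165056981. Like Tnfsf4, Cd40 reached the minimum mean only through the IkE5 libraries, so its limma p and the count of 1 are no support for a change, and it did not enter the fit without scaling or without either IkE5 library (adjusted p by limma 0.0411 with no minimum). The call was also lost with 100 bp added (limma adjusted p = 0.254), with scaling by median ratios (limma adjusted p = 0.0708) and with 50 kb flanks (limma adjusted p = 0.134). Cd40 is also a B cell gene. The windows of the B cell markers were covered at 1.83% and 1.67% in IkE5 and at 2.62% and 2.58% in WT, the opposite order to Cd40. Tnfrsf19, an orphan receptor, had 2.067 and 1.791 kb in WT and 5.461 and 4.418 kb in IkE5 (log2 0.99 ± 0.20, SE, limma adjusted p = 0.0579), with IkE5 only regions of p300 (chr14:61045945-61046531), of NFAT1 at the same place (chr14:61045886-61046453) and of H3K27ac. Tnfrsf8 (CD30), the superfamily gene beside Tnfrsf1b, had 2 WT only p300 regions (chr4:145274804-145275368 and chr4:145283412-145283917), a WT only NFAT1 region (chr4:145300067-145300579) and an IkE5 only H3K27ac region. Its covered length was 32.236 and 10.934 kb in WT and 29.438 and 20.102 kb in IkE5, so the WT libraries enclosed the IkE5 libraries. Tnfrsf10b, a death receptor for TRAIL, had WT only regions of Foxp3 and of NFAT1 and a log2 difference of -0.63 (limma adjusted p = 0.297), and Tnfrsf1a, the death domain receptor for TNF, had the lowest value of the list, -0.64 (limma adjusted p = 0.225).

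WT only NFAT1 regions were present at 7 of the 11 other superfamily genes with any NFAT1 region, where 31.1% of all genes with an NFAT1 region had one, and at 0 of the 4 receptor genes. Among the 7 are Tnfrsf26, Tnfrsf22 and Tnfrsf23, neighbours on chromosome 7. The windows of adjacent genes overlap there, so a region can count for more than 1 of them. An IkE5 only NFAT1 region was present at 1 of the 11, beside 4.61%. For p300, 1 of 12 had a WT only and 1 of 12 an IkE5 only region, beside 11.3% and 8.56%, for Foxp3 1 and 0 of 19, beside 6.31% and 7.25%, and for H3K27ac 4 and 3 of 21, beside 13.3% and 11.2%. The difference between the 4 genes and the other family genes was not tested.

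The genes that carry the receptor signal were taken from 2 lists, which were not tested against all genes, whose median was -0.02. None of the 13 TRAF adaptors and receptor-proximal regulators passed limma's threshold, with a list median of -0.04 and a range from -0.29 for Tank, a TRAF-binding regulator, to 0.34 for Traf2, the main adaptor of these receptors. None of the 8 NF-kappaB subunits and inhibitors passed, with a median of 0.20 and a range from -0.26 for Rel to 0.51 for Nfkb1. Traf5, an adaptor of OX40 and GITR, had IkE5 only regions of p300 (chr1:191986749-191987284), of NFAT1 (chr1:191988384-191989006) and 3 of H3K27ac, with a log2 difference of 0.26 (limma adjusted p = 0.732). Birc3, a ubiquitin ligase of the receptor complex, had WT only regions of NFAT1 (chr9:7836968-7837545) and H3K27ac. This NFAT1 region overlaps the neighbouring gene Birc2 and only the edge of the Birc3 window, so it was assigned to both genes. Tank had WT only regions of p300 (chr2:61578287-61578879) and H3K27ac. Relb, the non-canonical NF-kappaB subunit, had WT only regions of Foxp3 and p300, with an IkE5 only region of H3K27ac. WT only NFAT1 regions were at 5 of 11 TRAF and regulator genes and 0 of 7 NF-kappaB genes with any NFAT1 region, beside 31.1% of all such genes, and IkE5 only ones at 1 of 11 and 0 of 7, beside 4.61%. The 5 include both Birc2 and Birc3, which share the 1 region named above, so the genes are not separate counts. For H3K27ac, WT only regions were at 4 and IkE5 only regions at 4 of 13 TRAF and regulator genes, and at 1 and 1 of 8 NF-kappaB genes, beside 13.3% and 11.2%. For p300 the counts were 1 and 2 of 13 and 2 and 1 of 8, beside 11.3% and 8.56%, and for Foxp3 0 and 0 of 13 and 1 and 0 of 8, beside 6.31% and 7.25%.

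**Figure D5:**
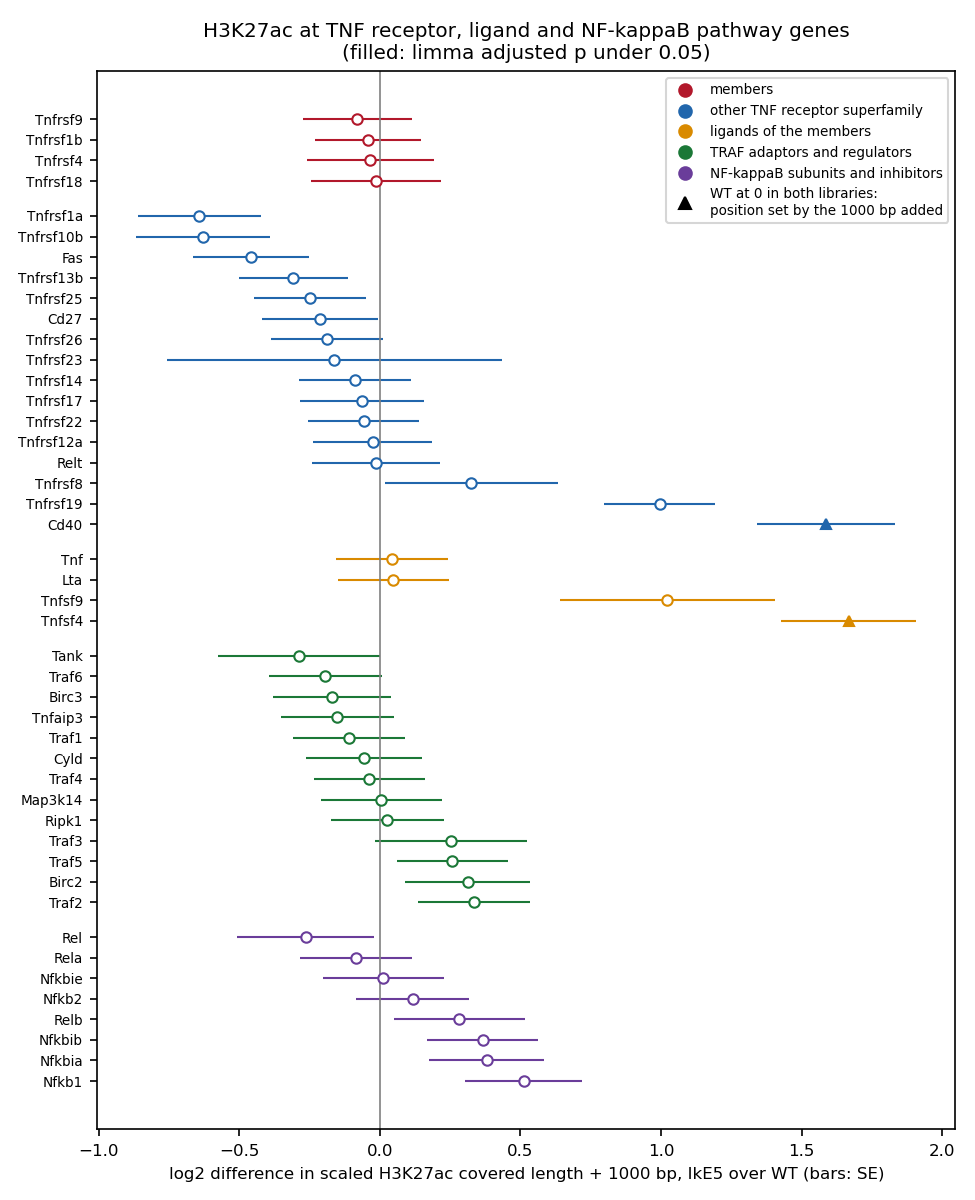
Log2 difference in scaled H3K27ac covered length + 1000 bp, IkE5 over WT, for the receptor genes and the genes of the 4 lists that entered the limma fit; points are estimates from 2 libraries per genotype, bars the SE, filled symbols limma adjusted p under 0.05, and triangles genes with no WT peak, whose position depends on the 1000 bp added. The 4 receptor genes lie between -0.08 and -0.02, and the filled symbols are Cd40 and Tnfsf4.

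By number of peaks in each of the 18 libraries, on the log2(peaks + 1) scale, the protein-coding genes nearest to Tnfrsf1b were Spata48, Upb1 and Spred2, at Euclidean distances of 1.466, 1.472 and 1.55, where the median gene was at 8.726. For Tnfrsf9 they were Dock11, Agpat4 and Dthd1 (1.505, 1.56 and 1.61, median gene 8.466). For the joined Tnfrsf4 and Tnfrsf18 window they were Ccdc63, Slfn2 and Cnga1 (1.768, 1.843 and 1.888, median gene 6.511). No gene of the superfamily was among them.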

How the data were processed

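ChIP-seq peak lists of 18 libraries were analysed. 4 input samples have no list and were not analysed here. The authors deposited peak positions (chromosome, start and end) for each library separately, without scores or reads. Per the submitters' processing notes, FastQC, Bowtie2, MACS2, bedtools and HOMER were used and the build was mm10. Which tool called the peaks, the threshold and the use of inputs are not given in the sources used here. A stricter or a shallower call removes peaks and shortens H3K27ac domains, so peak numbers and covered length move with depth and enrichment as well as with binding. At most 0.745% of intervals were identical between any of 153 pairs of lists, so no library was treated as a copy.

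Groups and library numbers were taken from the sample titles. Genes came from RefSeq GRCm38.p6, the assembly of mm10, and all 4 symbols matched. Windows were the gene and 10 kb on each side. Peaks overlapping by at least 1 bp were joined into regions, within a target for the genotype comparison and over the 14 factor lists for sites. Peak numbers were compared by 2-sided exact permutation tests over libraries. limma 3.58.1 (R 4.3.3) was fitted to log2(scaled length + 1000 bp) of the 12714 genes whose mean reached 1000 bp, the prior following the mean, and p-values were adjusted by Benjamini-Hochberg with a threshold of 0.05. The fit was also run on simulated data with equal library totals and no length filter, so that run did not test the scaling or the filter. This log scale understates the change of genes with short coverage. Python 3.11.15, numpy 2.4.6 and scipy 1.17.1 were used otherwise.

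The genes and lists were chosen with earlier results of these data known. From each list, genes were named that passed limma, that had WT only regions, or IkE5 only regions, in at least 2 targets, or that had the largest log2 differences; single sites were named for how many lists held them, after their values were seen. Alternatives were the flanks, the overlap minimum, scaling, the constant added, the filter, the replicate block and leaving out each library.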

Additional observations from a re-analysis of the deposited data

How the results depend on the processing

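Peak positions carry no depth, so a difference in calling between libraries limits every comparison here, and 2 libraries per genotype cannot reach 0.05 in an exact permutation test. Leaving out each library in turn moved the IkE5 minus WT difference in peaks from -5 to 6 for Foxp3, from -1.5 to 1.5 for p300 and from -2 to 3 for H3K27ac, and that in H3K27ac length from -160.8 to 48.5 bp per Mb. For Foxp3 it was -5 without WT library 2 and -2.5 without IkE5 library 1, for H3K27ac peaks -1.5 without WT library 1 and -2 without IkE5 library 2. With 50 kb flanks p300 had -3.5 peaks (2-sided exact permutation p = 0.333), and per 10000 peaks NFAT1 had 10.5. The Ikaros overlap was 100% with a peak in at least 1 library (16 of 16 regions) and in gene bodies (1 of 1), and 87.5% to 100% without 1 library. The 143 genes called by limma became 37 with 100 bp added, 78 without the length filter, 22 with median ratio scaling and 0 without scaling, where 1156 genes had an unadjusted p under 0.05, and 126 to 631 without 1 library. With the replicate block 1250 genes were called (611 lower, 639 higher). The labels do not say that a number marks a shared preparation, but number 1 minus number 2 correlated between the genotypes at 0.46 over 12714 genes, and the block called none of the 4 receptor genes. The small differences of these genes changed sign, with no adjusted p under 0.708 in any setting. Tnfrsf1b was at 0.0428 and Tnfrsf9 at 0.0245 with 50 kb flanks. Without WT library 1 Tnfrsf1b was at -0.148, Tnfrsf4 at -0.273 and Tnfrsf18 at -0.258, their lowest values without 1 library. Tnfrsf1b was at 0.0620, Tnfrsf4 at 0.20 and Tnfrsf18 at 0.23, their highest, without WT library 2, and Tnfrsf4 at 0.05 and Tnfrsf18 at 0.09 without IkE5 library 1. Median ratio scaling gave 0.0033 for Tnfrsf4 and 0.0226 for Tnfrsf18, which was at 0.0130 without scaling. Of the other genes, Tnfrsf8 ranged from -0.157 (without WT library 2) to 0.805, Birc3 from -0.348 to 0.0070 (without WT library 2) and Tank from -0.714 to 0.137 (without WT library 1), and Relb was at -0.0320 in the gene body. Tnfrsf10b passed limma with the block (adjusted p = 0.0272), and Tnfrsf19 did with the block (adjusted p = 0.00682), with 50 kb flanks (adjusted p = 0.0284) and without IkE5 library 2 (adjusted p = 0.0414). For a tally, a difference counted as the same if it kept its sign, whatever its size, and for single genes also its side of the threshold. Where a difference was 0, it had to stay within the spread between libraries. Counts of regions or of called genes were the same within a ratio of 1.5, with 0 against 0 included, and the Ikaros overlap within its confidence interval. By these rules 222 values were the same, 35 moved by more, 20 changed sign, 6 lost and 4 gained a call. The tally does not measure how far values moved. The cause of these changes was not tested.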
